A study of Arabidopsis thaliana with 6 samples.

Results

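The 5 alpha-expansin genes described here are EXPA4, EXPA8 and EXPA15 and the root hair genes EXPA7 and EXPA18. They were chosen by name, with earlier results of these data known, and each was read by 1 probe set annotated to that gene alone: EXPA4 (AT2G39700), EXPA8 (AT2G40610), EXPA15 (AT2G03090), EXPA7 (AT1G12560) and EXPA18 (AT1G62980). They are 5 of 13350 genes with a probe set annotated to them alone in the annotation used here, among the 22810 probe sets of the Affymetrix ATH1 array. The arrays were hybridised with RNA of whole Arabidopsis thaliana seedlings of ecotype Col-0, pooled from about 40 plants per sample. The plants were grown at 22 °C and 100% humidity with 16 hours of light. A pair of cdpk6-yfp lines was studied, each carrying a transgene of the calcium-dependent protein kinase CDPK6 joined to yellow fluorescent protein: line 4 (cdpk6-yfp 4) with 2 arrays and line 1 (cdpk6-yfp-1) with 1 array. The control was the aeq+ strain, which carries a transgene for the calcium reporter aequorin, with 2 arrays. On 1 further array the title (Kan-3) and source name point to the control, the strain label points to line 1, and the title code A3-1 goes with the A3-2 of the line 1 array. That array was placed in no group and its values are given separately. The promoter of the cdpk6-yfp transgene, the age of the seedlings and whether the cdpk6-yfp lines also carry aequorin are not given in the sources used here, and the control is not a plant without a transgene.

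Expansins are secreted proteins that loosen plant cell walls at acid pH without cutting their polymers, which lets turgor extend the wall. Alpha-expansins act in organ growth, and particular family members serve particular cells. EXPA7 and EXPA18 are known for expression in root hair cells, the epidermal cells of the root that grow a long tip-growing extension, whereas EXPA4, EXPA8 and EXPA15 are grouped here as genes of general growth.

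The deposited values are intensities on a linear scale, in arbitrary units, with a median per array between 44.2 and 46.4. Across the 13647 probe sets bright enough to be tested, log2 values correlated at 0.990 between the line 4 arrays and at 0.983 between the control arrays, while the array with conflicting labels stood apart, at 0.872 to 0.896 with the line 4 and control arrays and at 0.931 with line 1. Signal from 25S ribosomal RNA was 275.4 and 915.9 in line 4, 1073.1 in line 1, 282.1 and 277.2 in the control and 2189.3 on the array placed in no group. The ratio of 3′ to 5′ actin signal, a measure of RNA integrity that is higher in degraded RNA, was 1.839 and 2.03 in line 4, 1.645 in line 1, 2.276 and 2.363 in the control and 1.964 on the array placed in no group. The 3 arrays of the cdpk6-yfp lines thus lay below both controls, as they did for EXPA7 and EXPA15. The same ratio for GAPDH did not separate the groups. It was 0.983 and 1.057 in line 4, 1.028 in line 1, 1.016 and 1.009 in the control and 1.126 on the array placed in no group. The part of these readings in the expansin values was not tested. Scanner background was 142.62 for control replicate 2 and 89.78 to 95.64 for the other arrays. Both organs of a seedling gave signal, with 10 of 10 named photosynthesis genes measured and the root gene PYK10 at 2178.5 to 2929.8 on all 6 arrays. Of the other root hair genes, XTH26 and AT2G14760 were too dim to test. Transcript levels of CDPK6 were not analysed here.

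All 5 alpha-expansin probe sets read lower on both line 4 arrays than on both control arrays, by 13.2% to 28.6% of the control's geometric mean. In RNA from whole seedlings, fewer cells of a type and less transcript per cell cannot be told apart. The differences of EXPA8 and EXPA15 passed the test across all probe sets, and those of EXPA4, EXPA7 and EXPA18 did not. In the line 1 array the genes split, with EXPA4 and EXPA8 above both controls, EXPA7 and EXPA15 below both, and EXPA18 between them. The highest EXPA4 and EXPA8 readings of all came from the array with conflicting labels, at 2.55 and 3.25 times the control mean.

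**Figure D1:**
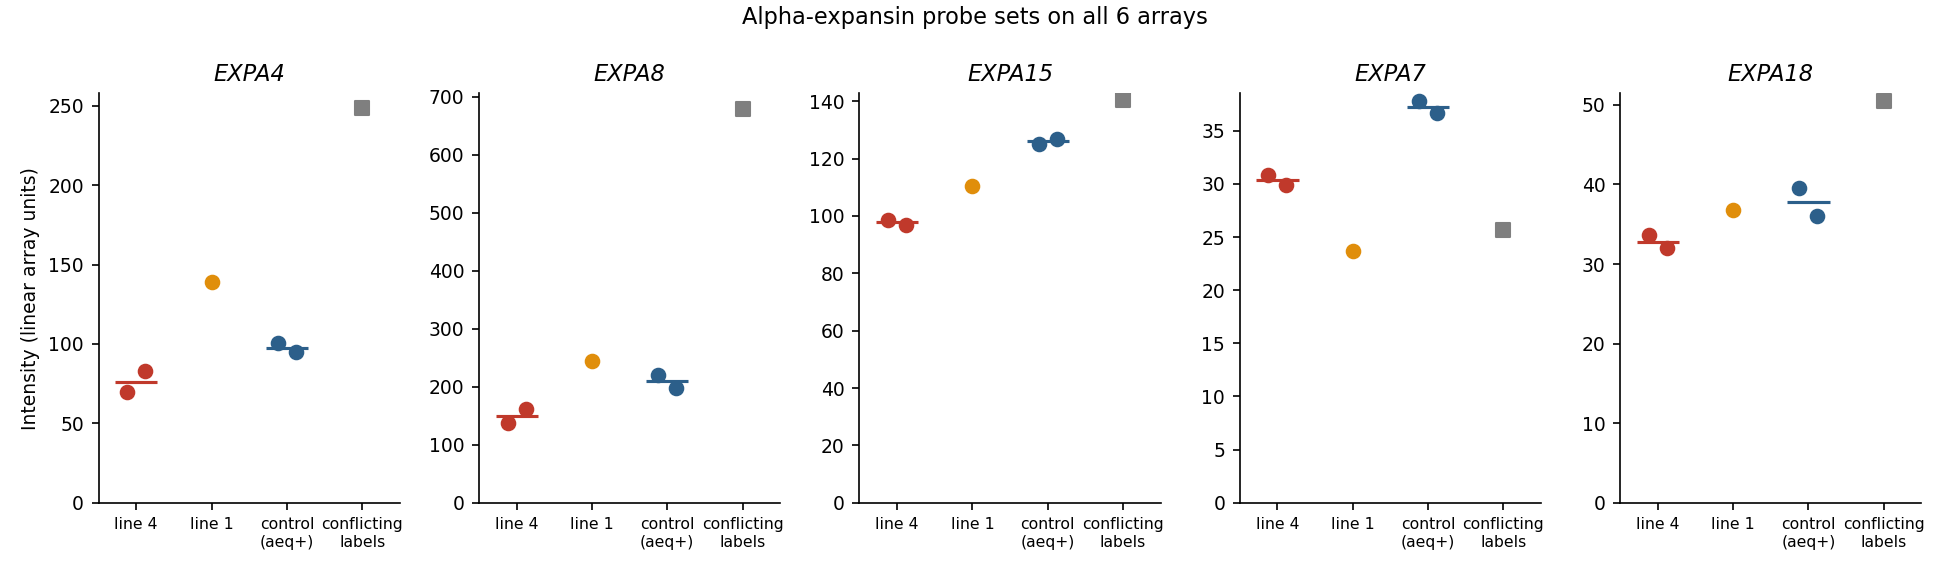
Intensity (linear array units, each axis starting at 0) of the 5 alpha-expansin probe sets on all 6 arrays. Each circle is 1 array of line 4, line 1 or the control, squares are the array with conflicting labels, and horizontal bars are means of 2 arrays. In every panel both line 4 arrays lie below both control arrays.

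EXPA8 showed the largest difference of the 5 in line 4. Line 4 read 137.5 and 161.9, whereas the control read 220.3 and 198.4, so that the means were 149.7 ± 17.3 in line 4 and 209 ± 15.5 in the control (SD, n = 2 each). The arrays of the 2 groups did not overlap. On the log2 scale the difference was -0.49 ± 0.10 (SE, 95% interval -0.72 to -0.25, limma adjusted p = 0.0139), a fall of 28.6%. The SE and interval come from a model fitted to all probe sets, which borrows spread between them. The call was lost without control replicate 1 (-0.41, limma adjusted p = 0.0633) and without line 4 replicate 1 (-0.37, limma adjusted p = 0.0963).

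EXPA15 had the closest replicates of the 5 on the log2 scale. It read 98.6 and 96.9 in line 4, 110.6 in line 1 and 125.1 and 126.8 in the control, with means of 97.8 ± 1.20 in line 4 and 126.0 ± 1.20 in the control (SD, n = 2 each). The gap between the groups exceeded the distance between replicates, and line 1 lay between the groups, below both controls. Line 4 differed from the control by -0.37 ± 0.10 (SE, 95% interval -0.59 to -0.14, limma adjusted p = 0.0390), a fall of 22.4%. Its adjusted p was close to the threshold of 0.05 and rose past it when any 1 of the 4 arrays was left out, to between 0.0727 and 0.183, while the difference stayed between -0.38 and -0.35.

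For EXPA4 line 4 read 69.6 and 82.9, whereas the control read 100.3 and 94.7. Both line 4 values were lower, but the line 4 arrays differed from each other by more than the nearest line 4 array did from the nearest control. The log2 difference of -0.36 ± 0.12 (SE, 95% interval -0.64 to -0.08) did not pass (limma adjusted p = 0.0853). It was nearly as large as that of EXPA15, and the replicates were less close.

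The probe sets of the root hair expansins lay near the limit for dim probe sets. EXPA7 read 30.8 and 29.9 in line 4, 23.7 in line 1 and 37.8 and 36.7 in the control. EXPA18 read 33.6 and 32.0 in line 4, 36.8 in line 1 and 39.6 and 36.0 in the control. For EXPA7 the 3 arrays of the cdpk6-yfp lines all lay below both controls, and the line 1 reading was itself under the limit of 29.6. EXPA7 passed the filter on its mean over the 5 grouped arrays, among which the controls read highest. For EXPA18 both line 4 arrays lay below both controls, but line 1 did not.

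The line 4 differences were -0.30 ± 0.20 for EXPA7 (SE, 95% interval -0.75 to 0.16, limma adjusted p = 0.355) and -0.20 ± 0.19 for EXPA18 (SE, 95% interval -0.63 to 0.23, limma adjusted p = 0.505). Neither passed. Both intervals include 0 and also falls larger than that of EXPA8, so these data do not show that the root hair genes stayed the same. Their mean levels over the grouped arrays, 31.3 for EXPA7 and 35.5 for EXPA18, were only 5.98% and 20.0% above the limit of 29.6 under which probe sets were left out as dim. Without the trend that ties a probe set's spread to its brightness, the SE of both was about 0.10 (0.0961 for EXPA7 and 0.105 for EXPA18), and neither passed (limma adjusted p = 0.121 and 0.267).

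In all, 5 of the 5 genes were measured and 2 of them passed as lower in line 4, where 7.37% of the 13647 probe sets did so and 15.5% passed in either direction. Both line 4 arrays lay below both controls at 5 of 5 genes and at 33.3% of all probe sets, and above both controls at 0 of 5 genes and at 26.8% of all probe sets. The 2111 probe sets that passed in either direction became 1028 without line 4 replicate 1 and 1064 without line 4 replicate 2. The median difference was -0.36 over the 5 genes and -0.03 over all probe sets. By size, 12.4% of probe sets differed by more than EXPA8, 21.5% by more than EXPA15, 22.4% by more than EXPA4, 30.4% by more than EXPA7 and 46.7% by more than EXPA18.

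**Figure D2:**
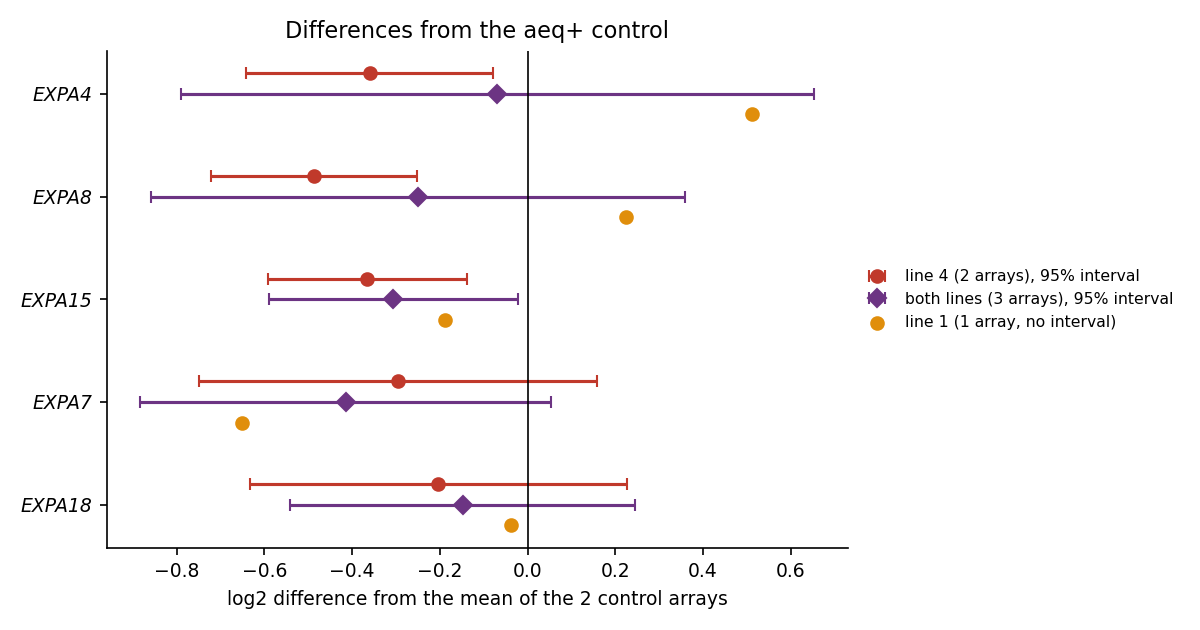
Difference in log2 intensity from the mean of the 2 control arrays for each gene. Red circles are line 4 and purple diamonds both lines together, with 95% intervals from limma, and orange circles are the 1 line 1 array, which has no interval. The line 4 intervals of EXPA8, EXPA15 and EXPA4 lie below 0, and the line 1 values of EXPA4 and EXPA8 lie above 0.

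With 1 array, line 1 has no replicate check and no p-value. For EXPA4 the reading in line 1 was 139.0, with the controls at 100.3 and 94.7, or 1.43 times the control mean. For EXPA8 it was 244.3, with the controls at 220.3 and 198.4, or 1.17 times the control mean, and 49.8% of probe sets differed by more. For EXPA4 that share was 16.8%. Both genes were thus above both controls in line 1 and below both in line 4, a combination found at 9.20% of all probe sets. With the array of conflicting labels among the controls, the line 1 difference became -0.34 for EXPA8 and 0.0617 for EXPA4.

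Among the others, EXPA7 was 0.64 times the control mean in line 1, a log2 difference of -0.65, and 10.3% of probe sets differed by more. Its reading there, 23.7, was under the limit of 29.6 for dim probe sets. EXPA15 was 0.88 times the control mean and EXPA18 0.97 times. Set against line 4 directly, line 1 was 1.83 times as high for EXPA4 and 1.64 times for EXPA8, but 0.78 times for EXPA7. None of the 5 genes reached a 2-fold difference from the control in line 1, where 4.07% of probe sets did so outside both controls. The line 1 array lay above both controls at 2 genes and at 43.2% of all probe sets, and below both at 2 genes and at 36.1%.

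The labels give both lines the same modification, and in a fit of their 3 arrays as 1 group against the 2 controls no gene passed. That fit counts the gap between the lines as spread within the group, and line 4 supplies 2 of the 3 arrays. EXPA15 stood closest, at -0.31 ± 0.12 (SE, 95% interval -0.59 to -0.02, limma adjusted p = 0.365), followed by EXPA7 at -0.41 ± 0.19 (95% interval -0.88 to 0.05, limma adjusted p = 0.413). EXPA8 was at -0.25 ± 0.25, EXPA18 at -0.15 ± 0.16 and EXPA4 at -0.07 ± 0.29. Without line 1, which leaves line 4 alone, EXPA8 (-0.49, limma adjusted p = 0.0151) and EXPA15 (-0.37, limma adjusted p = 0.0390) passed, and without line 4 replicate 1 or 2 EXPA4 turned to 0.14 or 0.01. In this limma fit 0% of all probe sets passed, and 1770 had an unadjusted p under 0.05, among them 1 of the 5 genes, EXPA15. Without line 1 the number passing was 2116. All 3 arrays of the cdpk6-yfp lines lay below both controls for EXPA7 and EXPA15, and at 18.7% of all probe sets.

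Set beside the others, the array placed in no group read 678.7 for EXPA8, 244.3 being the next highest value, and 248.7 for EXPA4, with 139.0 next. EXPA18 at 50.5 and EXPA15 at 140.5 were also higher than on any other array, at 1.34 and 1.12 times the control mean. EXPA7 went the other way, at 25.7 or 0.69 times the control mean, close to the 23.7 of line 1. Both readings were under the limit of 29.6 for dim probe sets.

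It lay above both controls at 4 of the 5 genes and at 46.0% of the probe sets tested, and was the highest of the 6 arrays at the same 4 genes and at 30.0%. EXPA4 and EXPA8 exceeded the control mean there by at least 2-fold, as did 2.51% of the probe sets. It shared with line 1 a high EXPA4 and EXPA8, a low EXPA7 and a high 25S ribosomal RNA reading, whose part in these values was not tested. Line 4 replicate 2 also had a high 25S reading, 915.9 beside controls at 282.1 and 277.2, with EXPA4 at 82.9 and EXPA8 at 161.9. In line 4 replicate 1 the 25S reading was 275.4, with EXPA4 at 69.6 and EXPA8 at 137.5, both lower than in replicate 2. Counted as control, the array placed in no group moved the line 4 difference of EXPA8 to -1.05 ± 0.54 (SE, limma adjusted p = 0.469) and that of EXPA15 to -0.42 ± 0.12 (limma adjusted p = 0.262). Counted as line 1, it left both differences as they were and widened their errors, to -0.49 ± 0.43 for EXPA8 (limma adjusted p = 0.631) and -0.37 ± 0.15 for EXPA15 (limma adjusted p = 0.325).

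**Figure D3:**
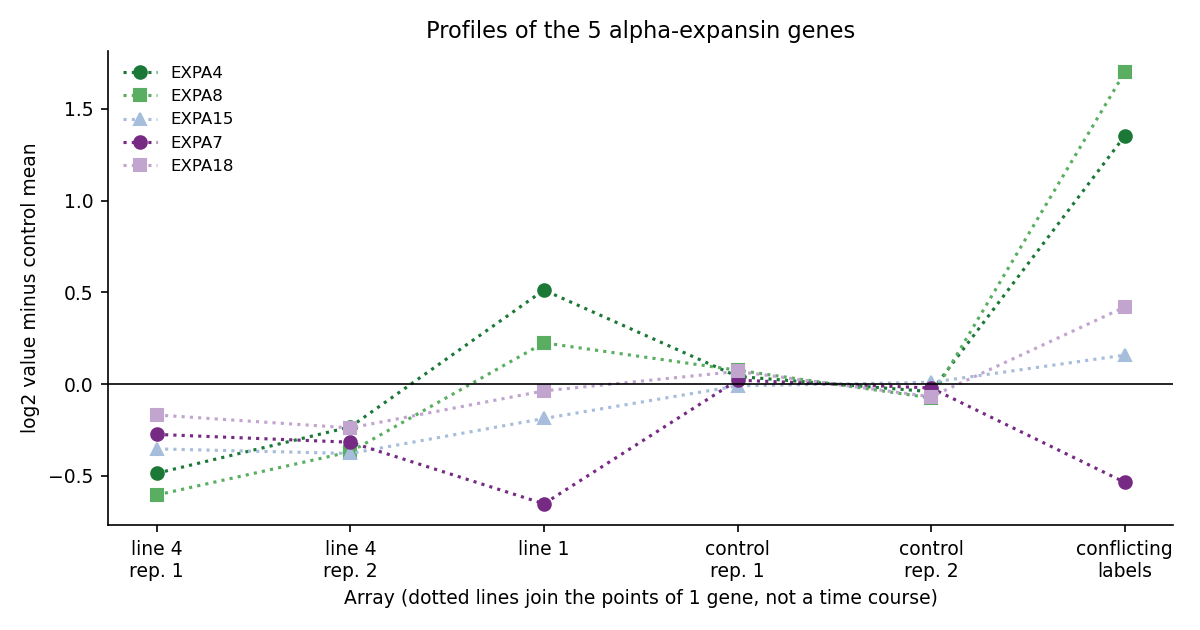
Log2 value of each of the 5 genes on each array, minus the mean of the 2 control arrays. Dotted lines join the points of 1 gene and stand for no order in time. EXPA4 and EXPA8 run together from low in line 4 to high on the array with conflicting labels, and EXPA7 is low on every array but the controls.

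The 5 profiles were not alike. Over the 6 arrays EXPA4 and EXPA8 correlated at Pearson r = 0.979, and EXPA8 and EXPA18 at 0.959. EXPA7 and EXPA18 stood at r = -0.27, EXPA7 and EXPA4 at -0.58 and EXPA7 and EXPA8 at -0.45. These values describe 6 arrays that are not independent of each other, and the array with conflicting labels weighs heavily in them. Without it, over 5 arrays, EXPA4 and EXPA8 stood at 0.946, EXPA8 and EXPA18 at 0.784, EXPA7 and EXPA18 at 0.299, EXPA7 and EXPA4 at -0.44 and EXPA7 and EXPA8 at -0.13. EXPA7 and EXPA15 stood at 0.555 over the 5 arrays and at 0.099 over all 6.

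The genes most like each member were sought by the highest Pearson r over the 6 arrays among 7361 candidate probe sets of 1 gene. For EXPA4 these were P1R1 (0.997), AT5G48900 (0.996) and AT4G28440 (0.995). AT5G48900 shared the size of the swing as well as its shape, with 153.0 and 173.8 in line 4, 313.3 in line 1, 243.2 and 207.3 in the control and 637.5 on the array with conflicting labels. P1R1 spanned 3.83-fold over the arrays, AT5G48900 4.17-fold and EXPA4 itself 3.57-fold, whereas AT4G28440 spanned only 1.18-fold. For EXPA8, which spanned 4.94-fold, the closest were AT3G61260 (0.996), AT3G28040 (0.995) and AT1G60010 (0.995).

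For EXPA15 they were AT3G52060 (0.993), AT1G30820 (0.988) and AT1G27090 (0.988), all of which fell further than EXPA15 in line 4, by 0.68, 0.70 and 0.45 on the log2 scale. These genes were chosen for likeness over the same arrays, so that they fell at all follows from the choice. For EXPA7 they were AT5G38520 (0.997), AT5G61820 (0.990) and AT2G28720 (0.988), and for EXPA18 AT4G17080 (0.994), CHLM, a methyltransferase of chlorophyll synthesis (0.993), and AT5G43460 (0.993). With 6 arrays such values are common: 444 probe sets exceeded r = 0.9 with EXPA4, 385 with EXPA8, 285 with EXPA18, 197 with EXPA15 and 114 with EXPA7.

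Of the 36 expansin loci listed, 18 had a probe set annotated to them alone in the annotation used, and 12 of these were bright enough to test. In line 4, 3 of the 12 fell, 0 rose and 9 did not pass in limma, where 15.5% of all probe sets passed. Beside EXPA8 and EXPA15 the beta-expansin gene EXPB1 fell, by more than the other 11. It read 19.6 and 24.1 in line 4, 37.1 in line 1 and 51.3 and 40.0 in the control. Both line 4 readings were under the limit of 29.6 for dim probe sets. EXPB1 passed the filter on its mean over the grouped arrays, among which the controls read highest. Its line 4 difference was -1.06 ± 0.23 (SE, limma adjusted p = 0.0132). The call was lost without line 4 replicate 1 (-0.91, limma adjusted p = 0.103) and without control replicate 1 (-0.88, limma adjusted p = 0.0505). It was also lost once dim probe sets were kept (0.0632) and once the array of conflicting labels joined the control (0.139) or line 1 (0.0898).

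The other measured alpha-expansin, EXPA9, differed by -0.08 in line 4 (limma adjusted p = 0.749), with line 1 at 65.6 and the array with conflicting labels at 73.3, both above the controls of 60.1 and 54.9. EXPB3 (-0.26) and EXLA3 (-0.20) were not past the threshold, nor was the expansin-like gene EXLB1 (0.44, limma adjusted p = 0.103), the 1 expansin of the 12 with both line 4 arrays above both controls, which passed without control replicate 1 (0.63, limma adjusted p = 0.0309). The median of the 12 was -0.23 in line 4 and 0.20 in line 1. EXLA3 was low outside line 4, at 25.8 in line 1 and 16.8 on the array with conflicting labels, against 59.6 and 58.9 in the control. EXPA16, EXPA20, EXPA21, EXPA24, EXPB2 and EXPB5 were dim, and 2 further probe sets were shared by EXPA22 with EXP26 and by EXPA23 with EXPA25, with no array above 9.6.

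**Figure D4:**
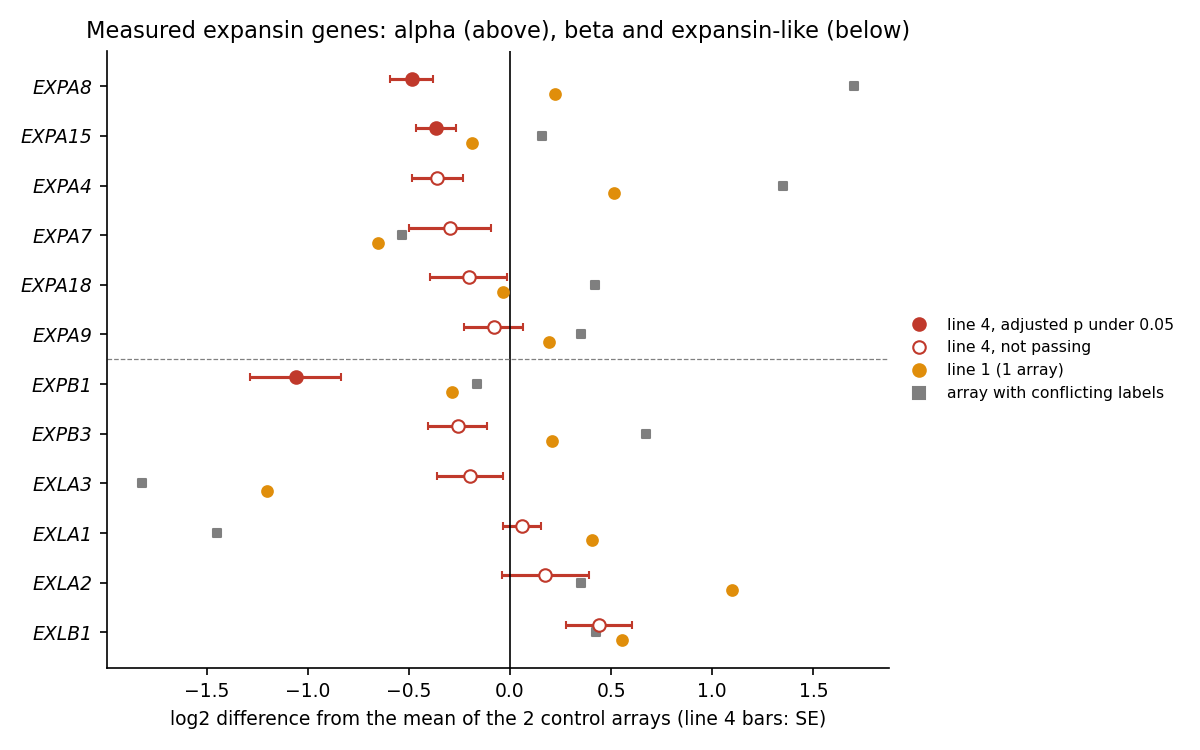
Log2 difference from the mean of the 2 control arrays for the 12 measured expansin genes, with alpha-expansins above the dashed line and beta-expansins and expansin-like genes below it. Red circles are line 4 with the SE from limma, filled where the adjusted p was under 0.05, orange circles are the 1 line 1 array and grey squares the array with conflicting labels. EXPB1, EXPA8 and EXPA15 are the filled circles, all at negative values.

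Other genes of wall growth were followed by lists, of which only a part had a probe set annotated to 1 gene alone. These were 9 of 29 loci for xyloglucan endotransglucosylase/hydrolases and 6 of 18 loci of pectin modification. Of 6 measured genes for xyloglucan endotransglucosylase/hydrolases, which cut and rejoin the xyloglucan that tethers cellulose, 2 rose, 1 fell and 3 did not pass in line 4, where 15.5% of all probe sets passed in either direction and 7.37% as lower. XTH19 rose by 1.76 ± 0.20 (SE, limma adjusted p = 0.000502), XTH18 by 0.37 (0.0427), and XTH32 fell by 0.31 (0.0484). Of 4 measured genes of pectin modification 1 rose, the pectin methylesterase gene ATPMEPCRB, by 0.41 (limma adjusted p = 0.0343), and 0 fell, beside the 15.5% of all probe sets that passed, with AT1G62770 at -0.42, AT1G67750 at -0.39 and PME61 at 0.20. XTH19 passed under all 14 alternatives, whereas XTH18 lost its call under 9 of the 14, XTH32 under 10 and ATPMEPCRB under 8. Among the fits with an array left out, XTH18 lost it without control replicate 1 (limma adjusted p = 0.155) and without line 4 replicate 1 (0.275) or 2 (0.0525), XTH32 without any 1 of the 4 arrays (0.0762 to 0.286), and ATPMEPCRB without control replicate 1 (0.124) and without line 4 replicate 1 (0.129) or 2 (0.123).

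The single measured genes of cellulose synthesis (COB, -0.17) and of acid growth (AT3G17090, -0.17) did not pass, and neither did the gibberellin receptor genes GID1C (-0.16) and GID1A (-0.08). Only 1 of 10 loci of cellulose synthesis, 1 of 19 of acid growth and 3 of 44 growth hormone regulators had a probe set annotated to them alone. Most of these lists was thus not measured, and the named genes do not stand for the processes. The median line 4 difference was -0.33 over the 6 measured alpha-expansins, -0.05 over the 6 xyloglucan enzymes, which ran from -0.31 to 1.76, -0.10 over the 4 pectin genes, -0.28 over the 5 genes of the root list and -0.21 over the 10 photosynthesis genes, with -0.03 over all probe sets.

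Other root and shoot genes were measured beside the expansins. On these lists, 5 of 51 root hair loci, 6 of 36 root loci and 10 of 58 photosynthesis loci had a probe set annotated to them alone. On the root hair list 2 genes beside EXPA7 and EXPA18 were measured, and neither passed in line 4: SCN1, which restricts where hairs emerge, read 291.4 and 333.1 in line 4, 345.1 in line 1 and 366.6 and 367.9 in the control (-0.24, limma adjusted p = 0.0965). FER, a receptor kinase needed for hair integrity, read 450.8 and 407.6 in line 4, 478.8 in line 1 and 404.5 and 410.8 in the control (0.07, limma adjusted p = 0.578). No probe set was annotated to any of the 6 listed genes of hairless root epidermis. The annotation used left 8730 probe sets unnamed, so probe sets for these genes may be among them.

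Of 5 measured genes on the root list 2 fell in line 4, where 7.37% of all probe sets did, the lateral root regulator LBD16 by 0.79 (limma adjusted p = 0.0366) and FACT, which makes caffeoyl esters of fatty alcohols, by 0.47 (0.0494), with PYK10 at -0.28 and AT5G13200, whose place as a root marker is in doubt, at 0.29. Without control replicate 2 PYK10 passed (-0.36, limma adjusted p = 0.00663). LBD16 lost its call under 6 of 14 alternatives and FACT under 10, and 0 genes of the list passed with no filter on dim probe sets or without a variance trend. Among the fits with an array left out, LBD16 lost it without control replicate 2 (limma adjusted p = 0.119) and without line 4 replicate 1 (0.247), and FACT without any 1 of the 4 arrays (0.0674 to 0.298). The summed root signal was 2577.9 and 2526.0 in line 4, 2742.2 in line 1, 3196.3 and 2900.8 in the control and 2389.9 on the array with conflicting labels. Most of that sum is PYK10. The other 4 genes summed to 257.5 and 288.3 in line 4, 194.6 in line 1 and 266.5 and 303.2 in the control, so that the groups overlapped. None of the 10 photosynthesis genes passed in line 4, with PSBW at -0.29, PSAN at -0.29, PSBY at -0.25 and ATPC1 at -0.21, but 8 passed without control replicate 2. After quantile normalization the differences were -0.12 for PSBW, -0.13 for PSAN, -0.0734 for PSBY, -0.0481 for ATPC1 and -0.11 for PYK10, all nearer to zero. Those of the expansins were -0.52 for EXPA8, -0.39 for EXPA15, -0.37 for EXPA4, -0.26 for EXPA7 and -0.17 for EXPA18. The values of EXPA7 and EXPA18 had also shrunk, from -0.30 and -0.20. The photosynthesis genes' summed signal was 25654.5 and 24947.5 in line 4, 24239.1 in line 1, 31400 and 26694.3 in the control and 28663.4 on the array with conflicting labels. The guard cell gene FMA stood at -0.37 (limma adjusted p = 0.257). Summed photosynthesis signal and PYK10 were thus lower on both line 4 arrays than on both controls, as the 5 expansins were, and their part in the expansin values was not tested.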

How the data were processed

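Biotin-labelled RNA of 6 samples was hybridised to ATH1 arrays, per the labels. The deposited values are intensities, and the probe summary method and genome build are not given in the sources used here. Each deposited array had a 2% trimmed mean of 100.01. The 126 zeros were raised to 0.1 before log2. Of 22810 probe sets, 64 array controls and the dimmest 40% by mean log2 intensity over the 5 grouped arrays were left out, leaving 13647. Line 4 was compared with the control in limma 3.58.1 (R 4.3.3) with lmFit and trended eBayes over 3 groups (2 residual degrees of freedom), and both lines over 2 groups (3), with Benjamini-Hochberg adjustment over all probe sets and a threshold of 0.05. The fit was tested on simulated data. The number of arrays limits the precision, and p-values measure the spread between pools only.

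Genes were named from the platform annotation (13513 probe sets of 1 gene, 503 of several, 8730 unnamed here), with symbols updated from the TAIR10.1 gene table. Coordinates are not given, as no build is named in the files. The members and the 12 lists (320 loci) were chosen with earlier results of these data known. The comparisons of promoters and proteins were not run. The named genes are the 5 members, for each the 3 genes of highest Pearson r over 6 arrays, and up to 4 measured genes per list with the smallest p in line 4. EXPA9, XTH26, AT2G14760, TRY and the dim expansins fall outside this rule and were named after their values were seen. The array numbers of line 4 and control did not pair the samples (correlation of deviations -0.08). Alternatives concerned filter, pseudocount, normalization, variance trend, left-out arrays, the array with conflicting labels and a replicate block.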

Additional observations from a re-analysis of the deposited data

Results flagged for a closer look

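EXPA4 and EXPA8 lay on opposite sides of the control in the 2 cdpk6-yfp lines. EXPA4 read 69.6 and 82.9 in line 4 and 139.0 in line 1, with controls at 100.3 and 94.7. EXPA8 read 137.5 and 161.9 in line 4 and 244.3 in line 1, with controls at 220.3 and 198.4. The difference between the lines was not tested, since line 1 has 1 array. The line 1 excess of EXPA8 was 1.17-fold, and with the array of conflicting labels counted among the controls the line 1 differences were -0.34 for EXPA8 and 0.0617 for EXPA4.

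The array with conflicting labels, which enters no comparison, read above both control arrays at 4 of the 5 genes. It stood at 248.7 for EXPA4, 678.7 for EXPA8, 140.5 for EXPA15 and 50.5 for EXPA18, and 46.0% of all probe sets also lay above both controls there.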

How the results depend on the processing

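All 5 genes stayed lower in line 4 under every alternative, but few of these could have turned a direction. Changes of filter, trend, block or line 1 membership leave the difference as it is. With both line 4 arrays below both controls, a pseudocount or a left-out array cannot turn it either. Quantile normalization could, and gave -0.52 (EXPA8) to -0.17 (EXPA18). Centring on the median gave -0.47 (EXPA8) to -0.18 (EXPA18). Adding the array placed in no group to the control gave -1.05 (EXPA8) to -0.12 (EXPA7). EXPA4, EXPA7 and EXPA18 passed under none of 14 alternatives, with adjusted p from 0.0598 to 0.578, 0.121 to 0.867 and 0.267 to 0.805. EXPA8 (-0.49) lost its call at an unchanged difference with no filter on dim probe sets (adjusted p = 0.0592) and without a variance trend (0.0771), and EXPA15 (-0.37) likewise with no filter (0.0638) and without a trend (0.0774), and at -0.35 with arrays centred on the median (0.0556). Leave-one-out fits gave -0.60 to -0.37 for EXPA8 and -0.38 to -0.35 for EXPA15. Once the array with conflicting labels joined the control, EXPA8 stood at -1.05 and EXPA15 at -0.42, without passing. The number of probe sets passing in line 4, 2111, was 1256 with no filter, 1116 without a trend, 1028 to 2116 with an array left out, and 94 or 203 once that array counted as control or as line 1. The replicate block gave 2609 and changed no call of the 5 genes (EXPA8 adjusted p = 0.000321, EXPA15 0.0380).

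For both lines the count of 0 became 5 with a filter on the lowest 20%, 4 after quantile normalization, 1 once that array joined the control, 2095 with both lines averaged in the fit of 3 groups, and 0 to 2116 with an array left out. EXPA4 (-0.07) turned to 0.0763 with both lines averaged and to 0.29 with that array as line 1, which also turned EXPA8 (-0.25) to 0.24. Leave-one-out values ran from -0.36 to 0.14 for EXPA4, from -0.49 to -0.0721 for EXPA8 and from -0.37 to -0.27 for EXPA15, and EXPA8 and EXPA15 passed without line 1. For line 1 the 555 probe sets past 2-fold became 2528 with no filter, 1067 with a filter on the lowest 20% and 259 once that array counted as control. With it as control or as line 1 the line 1 differences were 0.0617 or 0.93 for EXPA4, -0.34 or 0.96 for EXPA8, -0.24 or -0.0149 for EXPA15, -0.47 or -0.59 for EXPA7 and -0.18 or 0.19 for EXPA18. EXPA15 was -0.21 after quantile normalization and -0.17 with centred arrays, and EXPA7 -0.59 with a pseudocount of 2.99. Among list genes, directions turned for EXLA3 (0.41) and GID1A (0.0196) with it as control, and with an array left out for FER (-0.0001 to 0.1452), GID1A (-0.1562 to 0.0059) and GID1C (-0.3552 to 0.0265). The causes of these changes were not tested.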

Other observations

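AT2G14760, a gene of the root hair list singled out after its values were seen, was, like EXPA7, highest in the control. It read 11.1 and 6.7 in line 4, 5.6 in line 1, 22.1 and 21.0 in the control and 3.0 on the array with conflicting labels. The 4 other arrays all lay below both controls, but the levels lie under the limit of 29.6 for dim probe sets. In the fit with no filter the line 4 difference was -1.32 ± 0.44 (SE, limma adjusted p = 0.155). Of the other genes of the list with an annotated probe set, XTH26 was also highest in the control, though at 2.3 at most. FER was highest in line 1 (478.8), and SCN1 (448.2) and TRY (15.9) on the array with conflicting labels.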
